A study of Mus musculus with 6 samples.

Results

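Mouse cells labelled as neural progenitor cells (NPC), a type that can divide in culture and form neurons and glia, were sequenced. They comprised parental cells and 2 clones labelled knockout, and the comparison described here set knockout clone 2 against knockout clone 1. All 3 groups had 2 libraries: the parental cells carry the genotype label WT, and both clones carry the label KO with nothing in the labels to tell them apart beyond a clone number. The genes described are those with a mean of at least 1 CPM (counts scaled to a common library size) over the 4 knockout libraries, 14622 of the 42365 genes in the deposited table. Their choice used their level and not their difference between the clones. The sources used here do not say how the knockout was made, which exon it affects, or whether the libraries of a clone came from separate cultures. The clones are called knockout, and all cells neural progenitors, as the labels have it. In parental cells 35 genes of G2 and mitosis summed to 118.9 to 120 CPM. The sum was 2711 to 2780 in clone 1 and 1737 to 1742 in clone 2. Gfap, an astrocyte gene, was at 2663 and 2719 CPM in parental cells. Parental levels are thus not those of cells as rich in division RNAs as the clones. Each clone is a single line. A difference between them is a difference between 2 clones. Its p-value rests on the spread between the libraries of a group, which may be technical in the knockout clones. The 2 parental libraries are themselves titled as separate clones, so the pooled spread may there include a difference between parental clones.

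A clone grows from a single cell, so whatever that cell carried in its chromosomes, its silenced genes and its state of differentiation is passed on to its descendants. Clones of the same labelled genotype can therefore differ in gene expression, and the comparison measures how far these lie apart. Neural progenitors pass through a continuum of states between radial glia, astrocytes, oligodendrocyte precursors and young neurons.

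The clone 1 libraries held 66955560 and 69530032 counts and those of clone 2 held 65345036 and 60924858. The parental libraries held 63879208 and 58871554. Across genes, log2 CPM correlated at 0.996 within clone 1 and 0.9971 within clone 2, and at 0.9677 to 0.9733 between the clones, though genes are not independent replicates. The median absolute log2 difference was 0.105 within clone 1, 0.0668 within clone 2 and 0.204 to 0.278 between the clones. Clone 1 library 1 stood apart from library 2 in its share of mitochondrial counts (6.856% against 5.567%), and the chi-square of counts per gene was 24.82 for the pair in clone 1 and 5.328 in clone 2, so neither pair matched within sampling noise. Of 14 microglia markers, 2 reached 1 CPM and C1qa and C1qb had no counts in the 4 knockout libraries.

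The clones differed at about every other gene, mostly by little. By edgeR's quasi-likelihood test with an adjusted p under 0.05, 7490 of the 14622 genes (51.2%) were called, of which 3312 (22.7%) were higher in clone 2 and 4178 (28.6%) were lower. The median absolute log2 fold change was 0.231 over all 14622 genes, and the smallest fold among the called genes was 1.08. A change of at least 1 on the log2 scale was called for 658 genes (4.5%), 299 higher (2.04%) and 359 lower (2.46%). At least 2 on that scale was reached by 169 genes and at least 3 by 72. The values of the libraries did not overlap between the clones for 11273 genes (77.1%). Without clone 2 library 2, the count of genes lower in clone 2 was 2775 and the count of all called genes was 5146. An exact permutation test of 2 libraries against 2 cannot give a p below 0.333, so every call rests on the spread pooled across genes and groups.

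**Figure D1:**
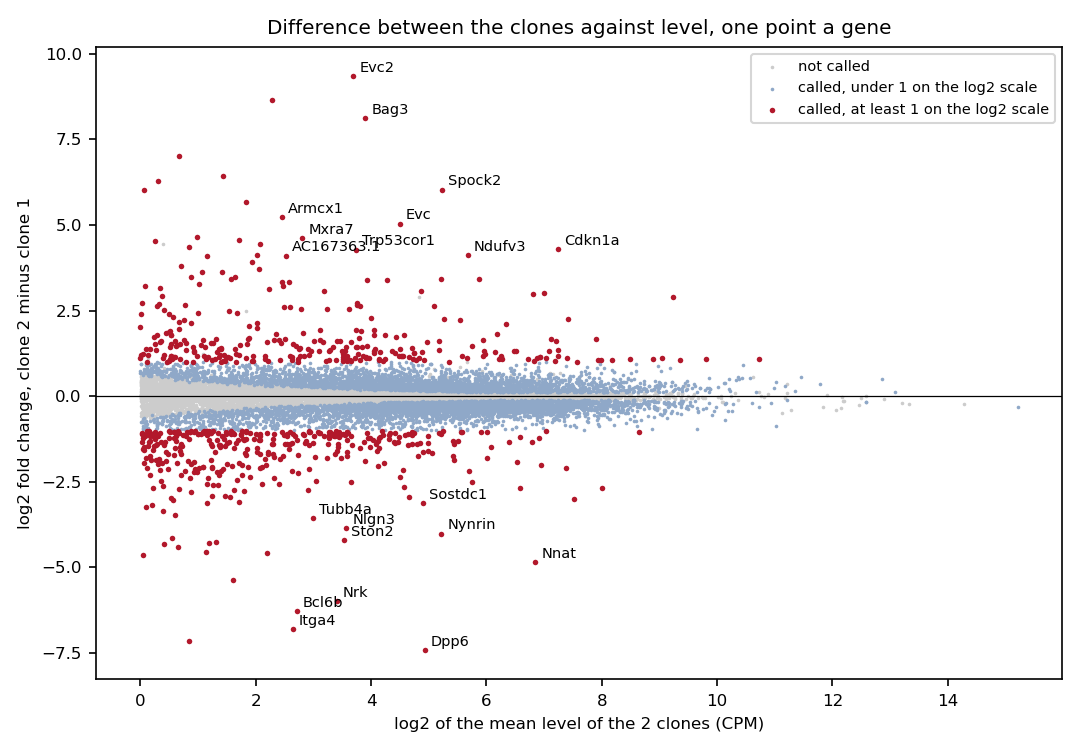
Each point is 1 of the 14622 genes; the horizontal axis is the log2 of its mean level in the clones (CPM) and the vertical axis its log2 fold change, clone 2 minus clone 1. Red points are the 658 genes called with a change of at least 1; the named genes at the top (Evc2, 9.36) and bottom (Dpp6, -7.42) lie far from the bulk, whose median absolute change was 0.231.

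Genes of low level changed by more, and genes of high level were called more often. A called change of at least 1 was found for 9.53% of the 1804 genes under 2 CPM and for 1.77% of the 2143 genes at or above 100 CPM, while the share called at any size rose from 25.6% to 65.5%. Long intergenic RNAs had such a change in 12.8% of 243 genes and protein-coding genes in 4.47% of 11774. The position of the parental level was not the same for all of these genes. Of the 299 genes higher in clone 2 by at least 1, the parental mean lay between the clones for 149, above both for 65 and below both for 85. Of the 359 lower genes, it lay between them for 117, above both for 144 and below both for 98.

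The gene with the largest rise was Evc2, which was nearly silent in clone 1. Evc2 and its neighbour Evc encode membrane proteins at the base of the primary cilium that help Smoothened to pass on the Hedgehog signal. Evc2 (chr5:37338499-37425055, plus strand, GRCm38) had 2 and 3 counts in clone 1 against 1667 and 1628 in clone 2 and 894 and 743 in parental cells. Its fitted change of 9.36 depends on the small count added in the fit, so no fold is given. Evc (chr5:37289098-37336894, minus strand) starts close to Evc2 and runs the other way. It was at 1.43 and 1.22 CPM in clone 1, 42.8 and 44.8 in clone 2 and 17.4 and 16.5 in parental cells, a rise of 5.04 in clone 2 (SE 0.1, adjusted p = 1.04e-15). Both genes were thus low in clone 1 alone and above the parental level in clone 2.

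Other genes much lower in clone 1 than in either other group included Bag3, Spock2 and Armcx1. Bag3, a co-chaperone of Hsp70 in the autophagy of misfolded proteins, was at 0.152 and 0.0583 CPM in clone 1, 30.1 and 29.2 in clone 2 and 88 and 88.6 in parental cells. Spock2, a secreted proteoglycan of the brain matrix, was at 1.16 and 1.09 CPM in clone 1, 71.8 and 76 in clone 2 and 101 and 104 in parental cells, a 65.6-fold rise. Armcx1, which encodes a mitochondrial outer membrane protein that aids mitochondrial transport in neurons, was at 0.366 and 0.204 CPM in clone 1, 10.9 and 10.4 in clone 2 and 12.4 and 10.8 in parental cells. The parental and clone 2 levels of Armcx1 overlapped, whereas clone 1 lay more than an order of magnitude lower.

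Ndufv3, a subunit of respiratory complex I, was low in clone 1 too, at 5.17 and 5.87 CPM against 95.3 and 98.1 in clone 2 and 46.6 and 45.9 in parental cells, a 17.5-fold rise. Mxra7 rose 24.6-fold, the adenylate kinase gene Ak1 10.4-fold and Mmd2 10.8-fold. Lrrc32, whose product holds latent TGF-beta at the cell surface, followed another pattern, at 0.483 and 0.56 CPM in parental cells, 2.68 and 2.58 in clone 1 and 27 and 28.9 in clone 2. Gabra4, a GABA-A receptor subunit, was at 0.608 and 0.611, 1.13 and 0.86, and 9.87 and 10.1 CPM in the same order. For these last genes clone 2 lay above both other groups. The noncoding RNA AC167363.1 rose by 4.11 on the log2 scale, and the remaining genes of the 15 with the largest rise, Cdkn1a, Trp53cor1 and Eda2r, are described with the p53 targets.

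Dpp6 had the largest fall. It encodes an auxiliary subunit of Kv4 potassium channels, and was at 61.8 and 59.6 CPM in clone 1 against 0.287 and 0.422 in clone 2, with 7.86 and 6.84 in parental cells. The parental level lay between the clones, so Dpp6 stood above it in clone 1 and below it in clone 2. The integrin gene Itga4 was at 13.7 and 11 CPM in clone 1, 0.0604 and 0.162 in clone 2 and 1.54 and 1.53 in parental cells, and the repressor gene Bcl6b showed the same order, with 12.4 and 13.5, 0.211 and 0.114, and 1.34 and 0.831 CPM. Sostdc1, a secreted antagonist of BMP and Wnt ligands, was at 56.5 and 50.1 CPM in clone 1 and 5.95 and 6.31 in clone 2, against 0.296 and 0.458 in parental cells.

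A further group was much lower in clone 2 than in either other group. Nnat, the imprinted gene of neuronatin, was at 217 and 229 CPM in clone 1, 7.22 and 8.36 in clone 2 and 380 and 378 in parental cells, a 28.7-fold fall. Nynrin, at 69.3 and 71.2 CPM in clone 1, 4.08 and 4.66 in clone 2 and 71.8 and 74.5 in parental cells, fell 16.1-fold. Nlgn3, which encodes the postsynaptic adhesion protein neuroligin 3, was at 22.6 and 21.8, 1.42 and 1.66, and 40.9 and 39 CPM in the same order. In each of these genes, clone 1 was much nearer to the parental level than clone 2. Nrk (63.1-fold), the endocytic adaptor gene Ston2 (18.4-fold), the tubulin gene Tubb4a (11.8-fold), the GABA transporter gene Slc6a11 (7.93-fold), Qpct (7.69-fold), the Hedgehog co-receptor gene Cdon (6.61-fold), Pcdh15 (6.41-fold) and the glial connexin gene Gjc3 (6.4-fold) completed the 15 genes with the largest fall. The parental mean was nearer to clone 1 for 13 of these 15, and nearer to clone 2 for 11 of the 15 genes with the largest rise.

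**Figure D2:**
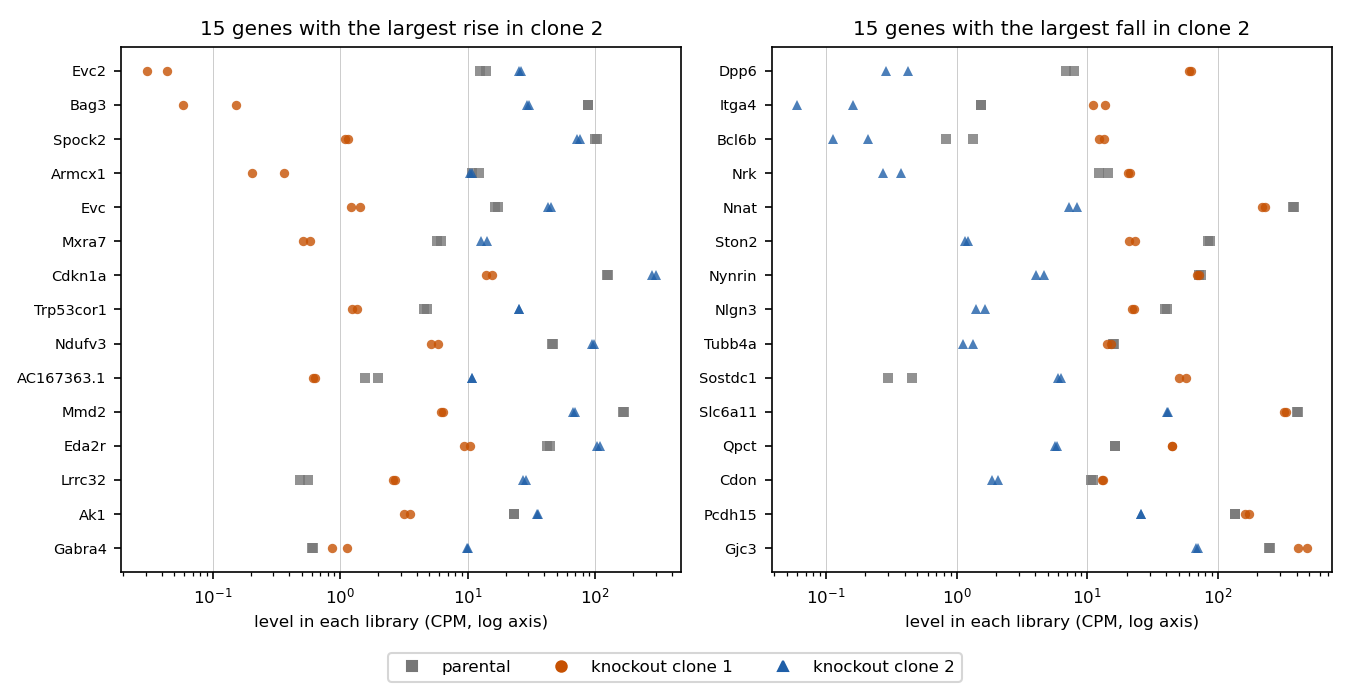
Levels in CPM (log axis) of the 15 genes with the largest rise in clone 2 (left) and the 15 with the largest fall (right), one symbol for each of the 6 libraries. The libraries of a group lie close together, and grey parental squares lie with clone 2 for Armcx1 and with clone 1 for Nynrin and Tubb4a.

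Genes with a mean under 0.1 CPM in one clone and at 2 CPM or more in the other numbered 8, of which 7 were silent in clone 1. Besides Evc2, these were Ano3, which encodes an anoctamin membrane protein (0 and 3 counts in clone 1 against 648 and 592 in clone 2), the imprinted gene Ndn of the growth suppressor necdin (7 and 1 against 365 and 319), and the olfactory receptor gene Olfr1318 (2 and 1 against 206 and 200). Foxl2os had 0 and 4 counts in clone 1 against 154 and 159, the synaptotagmin gene Syt16 had 4 and 0 against 147 and 117, and Mgmt, which encodes a DNA repair protein that removes alkyl groups from guanine, had 3 and 10 against 157 and 135. The noncoding RNA C230004F18Rik was silent in clone 2, with 1 and 2 counts against 285 and 193 in clone 1. Ano3, Olfr1318, Foxl2os and Syt16 were under 1 CPM in the parental libraries, whereas Ndn was at 12.5 and 13.5 CPM there and C230004F18Rik at 12.6 and 12.8. Silence in a clone was thus found both for genes that parental cells expressed and for genes they barely expressed.

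Promoters of the silent genes did not share one CpG content. CG dinucleotides are the sites of DNA methylation in mammals, and promoters with many of them are often kept free of it. RefSeq windows of 300 bases (250 before the start and 50 after it, GRCm38.p6) were matched for 9735 of the 14622 genes (66.6%), and held a median of 21 CG dinucleotides. Of the windows with 0 to 4 of them, 8.44% belonged to genes called with a change of at least 1, against 2.93% of windows with 30 to 65. The shares at 5 to 9 and 10 to 14 were 8.8% and 4.49%. Low-level genes, which also change more often, were not separated out here. Among the silent genes, the window of Evc2 held 19 CG dinucleotides, that of Mgmt 20, that of Ano3 8, that of Ndn 11, that of Syt16 42 and that of Olfr1318 1. The 200 bases before the RefSeq start are shown for 3 of them, from 5′ to 3′ on the gene's own strand with each CG in capitals, to show this range. They span chr5:37338278-37338477 (plus strand) for Evc2, chr7:136894386-136894585 (plus strand) for Mgmt and chr2:110950245-110950444 (minus strand) for Ano3.
Evc2: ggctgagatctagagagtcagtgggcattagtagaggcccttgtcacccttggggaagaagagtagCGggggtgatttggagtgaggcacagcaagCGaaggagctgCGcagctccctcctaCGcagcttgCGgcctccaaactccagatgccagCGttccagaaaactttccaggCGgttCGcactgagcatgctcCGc
Mgmt: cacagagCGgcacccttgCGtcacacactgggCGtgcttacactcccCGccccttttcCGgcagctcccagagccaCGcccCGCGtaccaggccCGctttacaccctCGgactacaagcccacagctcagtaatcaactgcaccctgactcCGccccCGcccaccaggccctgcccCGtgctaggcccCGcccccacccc
Ano3: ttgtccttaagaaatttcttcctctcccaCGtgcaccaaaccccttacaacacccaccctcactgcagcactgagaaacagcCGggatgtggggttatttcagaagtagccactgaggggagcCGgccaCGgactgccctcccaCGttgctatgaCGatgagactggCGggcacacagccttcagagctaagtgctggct
In these stretches Mgmt has 14 CG dinucleotides, Evc2 9 and Ano3 7. Methylation was not measured in these libraries.

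Targets of the transcription factor p53 were higher in clone 2 as a group. Of 22 genes in this list, 19 were called higher and 1 lower (90.9% called, against 51.2% of all genes). The median log2 fold change was 1.61 against -0.0174 over all 14622 genes, and 13 rose by at least 1. Between single libraries of the clones the median ran from 1.535 to 1.633, and between the libraries of a clone it was 0.067 and 0.017. Summed over the list, the level was 878.4 to 884.4 CPM in clone 1, 2199 to 2207 in clone 2 and 1304 to 1309 in parental cells. The clones thus lay on opposite sides of the parental libraries.

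Cdkn1a, which encodes the cell cycle inhibitor p21, led the list. It was at 14 and 15.4 CPM in clone 1, 277 and 300 in clone 2 and 125 and 126 in parental cells, a 19.6-fold rise in clone 2 (log2 4.29, SE 0.06, adjusted p = 4.36e-17). Trp53cor1, a noncoding RNA beside Cdkn1a that p53 induces, was at 1.24 and 1.35, 25.2 and 25.4, and 4.77 and 4.53 CPM in the same order. The receptor gene Eda2r was at 10.4 and 9.41 CPM in clone 1, 110 and 104 in clone 2 and 44.5 and 42 in parental cells. All 3 showed the order clone 1, parental, clone 2 from low to high, without overlap. Ccng1, which encodes cyclin G1, rose 8.01-fold from 29.2 and 27.6 CPM to 232 and 223, and Phlda3, an inhibitor of Akt signalling, rose 8.46-fold from 5.75 and 6.53 to 51.2 and 52.8. Ccng1 was at 140 and 141 and Phlda3 at 33.8 and 33.1 CPM in parental cells, again between the clones.

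Not every gene of the p53 circuit moved. Trp53, the gene of p53 itself, was at 110 and 107 CPM in clone 1, 100 and 106 in clone 2 and 118 and 118 in parental cells, with a log2 difference of -0.07 (SE 0.05, adjusted p = 0.238). Mdm2, the ubiquitin ligase that degrades p53 and is also its target, was at 64.6 and 60.8 CPM in clone 1 and 66.5 and 65.6 in clone 2 (0.08, SE 0.05, adjusted p = 0.252). Bax, a pore-forming protein of apoptosis, rose by 1.62 (SE 0.1, adjusted p = 1.07e-06), from 15.4 and 20.2 CPM to 54.5 and 55.2. RNA levels of Trp53 do not show the amount or activity of the protein, which was not measured.

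A p53 half-site, the palindrome bound by a p53 dimer, was searched as its published consensus on both strands in the 300-base windows, and was found in 643 windows (6.61%) and in 7 of the 20 windows of listed p53 targets (35%). Such a match is a description and not a site. Stretches of 3 windows are printed with the half-site in capitals, because 2 belong to genes that rose and the third to one that was not called. They run from 5′ to 3′ on the gene's strand (GRCm38.p6, RefSeq) at chr17:29090866-29090977 (plus strand), chr11:40755422-40755511 (minus strand) and chr10:117710895-117710984 (minus strand).
Cdkn1a: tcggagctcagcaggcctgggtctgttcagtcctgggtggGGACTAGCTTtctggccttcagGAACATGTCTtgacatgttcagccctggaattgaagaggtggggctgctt
Ccng1: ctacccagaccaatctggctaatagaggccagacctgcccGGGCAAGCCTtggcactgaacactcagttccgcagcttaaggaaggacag
Mdm2: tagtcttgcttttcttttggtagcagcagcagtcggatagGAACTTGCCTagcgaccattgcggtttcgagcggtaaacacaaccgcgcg
Cdkn1a held 2 such matches and the other two 1 each. A match was therefore present both in genes that rose and in Mdm2, which did not pass the test.

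Genes of the integrated stress response, which ATF4 induces when amino acids run short or protein folding fails, were also higher in clone 2. Of 27 genes, 21 were called higher and 4 lower (92.6% called, against 51.2% of all genes). Their median was 0.8, and 8 rose by at least 1. Asns, the asparagine synthetase gene, was at 48.9 and 45.2 CPM in clone 1, 106 and 105 in clone 2 and 21.1 and 21.8 in parental cells (2.25-fold). Aldh1l2, a mitochondrial enzyme of folate metabolism, rose 2.04-fold from 72.1 and 77.3 to 152 and 153 CPM. The amino acid transporter gene Slc7a5 rose 1.84-fold, from 355 and 353 CPM to 659 and 646. Sesn2, a stress sensor that restrains mTORC1 and is listed under p53 targets too, rose 4.29-fold from 29.6 and 31.5 CPM to 126 and 136. In Asns, Aldh1l2 and Slc7a5 the parental libraries lay below both clones. Of 23 genes of endoplasmic reticulum chaperones and the unfolded protein response, 2 were higher and 11 lower, with a median of -0.137. That is 56.5% called, against 51.2% of all genes. The chaperone gene Calr fell by 0.33 on the log2 scale and Hsp90b1 fell by 0.3.

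Glycolysis and hypoxia response genes were higher in clone 2 nearly without exception. Of 27 genes, 26 were called higher and 1 lower (100% called, against 51.2% of all genes), with a median of 0.831. Their summed level was 5868 to 6307 CPM in clone 1, 10830 to 11370 in clone 2 and 5035 to 5061 in parental cells. The glycolytic enzyme genes Pgam1, Gpi1 and Tpi1 each rose about 2.1-fold. Pgam1 was at 334 and 338 CPM in clone 1 and 711 and 734 in clone 2, Gpi1 rose by 1.09 (SE 0.04) and Tpi1 by 1.08 (SE 0.04). Vegfa, an angiogenic growth factor induced by hypoxia, was at 182 and 192 CPM in clone 1, 380 and 399 in clone 2 and 91.6 and 89.6 in parental cells. For Pgam1 and Tpi1 the clone 1 level was close to the parental one, at 307 and 321 CPM for Pgam1 and 222 and 222 for Tpi1 in parental cells. For the list the median was 0.711 once the median of genes of like GC content was taken off.

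Nuclear genes of oxidative phosphorylation were higher by less, and their difference came with a shift between the libraries of clone 1. Of 76 genes 57 were called higher and 2 lower (77.6% called, against 51.2% of all genes), with a median of 0.397. But the median ran from 0.267 to 0.536 between single libraries of the clones and was 0.202 between clone 1 library 2 and library 1. Without clone 1 library 1 it was 0.302, and without library 2 it was 0.515. Apart from Ndufv3, the ATP synthase gene Atp5g1 rose 1.69-fold (24 and 27.5 CPM in clone 1, 43.2 and 43.7 in clone 2), the complex I gene Ndufa8 1.66-fold and the complex III gene Uqcrc1 1.3-fold. The 13 protein genes of mitochondrial DNA had 0 called higher and 2 called lower, mt-Co2 and mt-Atp8, with a median of -0.239. That median was -0.31 between the clone 1 libraries, -0.035 without clone 1 library 1 and -0.339 without library 2. The calls turned on single libraries, with 2 of the 13 higher and 2 lower without clone 1 library 1, 12 lower without clone 1 library 2, and 0 in either direction without either clone 2 or either parental library. With a replicate block in the 4 knockout libraries 8 were lower. The call for mt-Co2 was lost in 8 of 15 alternative settings and that for mt-Atp8 in 11. Of 57 cytosolic ribosomal protein genes, 13 were higher and 9 lower (38.6% called, against 51.2% of all genes), with a median of 0.16. They differed by 0.229 between the clone 1 libraries. Their median was 0.044 without clone 1 library 1 and 0.292 without library 2. Among 34 mitophagy genes, 11 were higher and 5 lower (47.1% called, against 51.2% of all genes), with a median of 0.059, and the voltage-dependent channel gene Vdac1 rose 1.64-fold and Tomm7, a subunit of the mitochondrial import pore, 2.01-fold. Pink1, a kinase that marks damaged mitochondria for removal, was not called (0.1, SE 0.04, adjusted p = 0.0594).

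**Figure D3:**
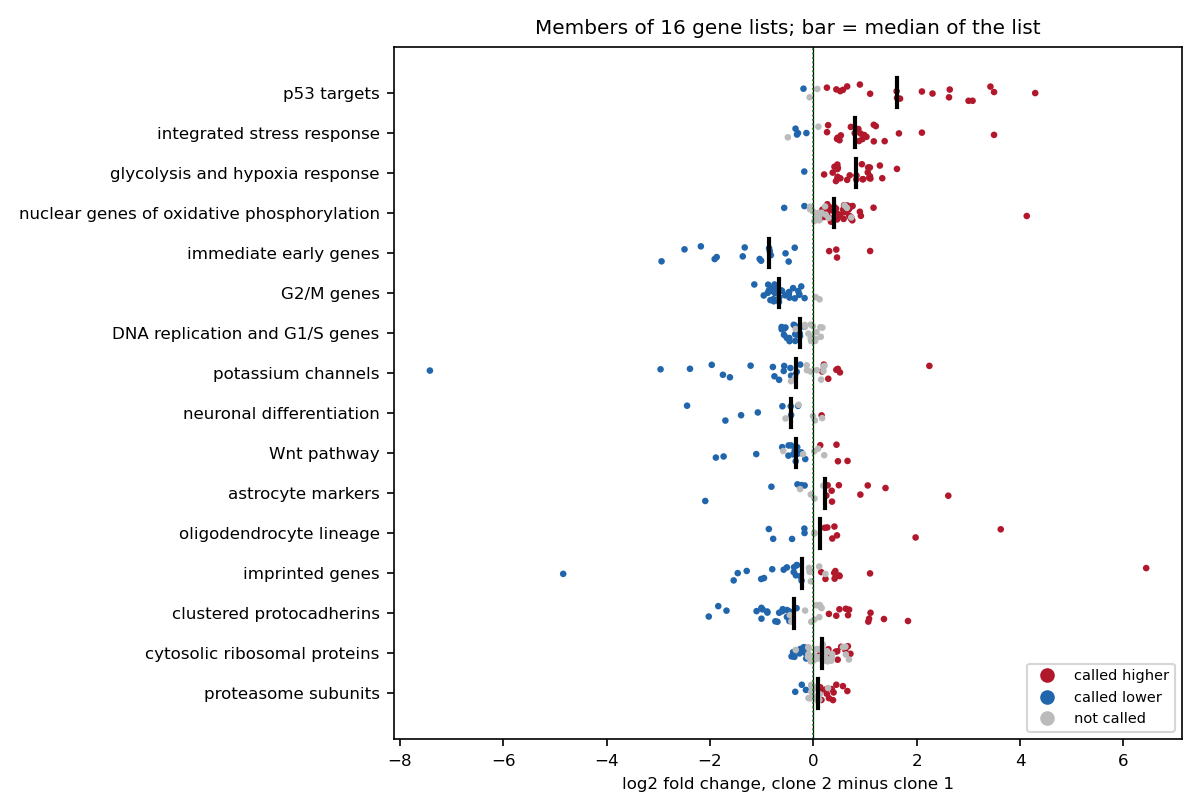
Log2 fold change, clone 2 minus clone 1, of each gene in 16 lists; red and blue points were called higher and lower at an adjusted p of 0.05, grey points were not called, black bars are list medians and the dotted line is the median of all 14622 genes. The bars for p53 targets (1.61), glycolysis (0.831) and the integrated stress response (0.8) lie to the right, and those for immediate early genes (-0.858) and G2/M genes (-0.665) to the left.

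Genes of cell division were lower in clone 2. Of 35 genes of G2 and mitosis, 0 were called higher and 33 lower (94.3% called, against 51.2% of all genes), with a median of -0.665. Their summed level was 2711 to 2780 CPM in clone 1, 1737 to 1742 in clone 2 and 118.9 to 120 in parental cells. Mki67, the proliferation marker, was at 516 and 492 CPM in clone 1, 275 and 279 in clone 2 and 3.6 and 4.22 in parental cells. Ccnb1, the cyclin of mitotic entry, was at 122 and 108, 59.5 and 58.4, and 0.436 and 0.441 CPM in the same order. Aspm, a spindle pole protein of dividing progenitors, was at 169 and 164 CPM in clone 1 and 102 and 97.4 in clone 2, and Ube2c, which helps to degrade mitotic cyclins, was at 93.3 and 88 and at 50.2 and 52.3. Both clones were far above the parental libraries in these genes, and clone 2 was the lower of the clones. In bulk RNA, fewer dividing cells and less of these RNAs per cell cannot be told apart.

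DNA replication genes were lower by less, with 19 of 35 called lower (54.3%, against 28.6% of all genes), 0 higher and a median of -0.264. Pole, a subunit of DNA polymerase epsilon, fell by 0.61, the ribonucleotide reductase gene Rrm1 by 0.57, Pola1 by 0.56 and the helicase gene Mcm4 by 0.47 on the log2 scale. Among 31 replication-dependent histone genes 14 were lower (45.2%, against 28.6% of all genes) and 0 higher. Their median of -0.308 stood beside a difference of 0.275 between the clone 1 libraries. It was -0.538 without clone 1 library 1 and -0.218 without library 2. Near-identical histone copies can share reads. The linker histone gene Hist1h1d, with 432 and 450 CPM in clone 1 and 284 and 277 in clone 2, fell by 0.65. Of 16 G1 cyclins, kinases and inhibitors, 4 were higher and 10 lower (87.5% called, against 51.2% of all genes), with a median of -0.181. Besides Cdkn1a, the D cyclin genes Ccnd1 (282 and 295 CPM in clone 1, 478 and 490 in clone 2) and Ccnd2 (279 and 279 against 448 and 447) rose 1.68-fold and 1.6-fold, and the inhibitor gene Cdkn2d rose 1.31-fold, a call that was lost without clone 1 library 1 or either clone 2 library. The inhibitor gene Cdkn1b, which encodes p27, fell by 0.5, and the imprinted Cdkn1c, which encodes p57, fell from 4.01 and 3.1 CPM to 1.6 and 1.3. The kinase gene Cdk2 fell by 0.37, and the pocket protein genes Rbl1 and Rb1 fell by 0.52 and 0.35.

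Immediate early genes, which growth factors and activity induce within minutes through kinase signalling, were mostly lower in clone 2. Of 19 genes, 15 were called lower and 4 higher (100% called), with a median of -0.858 and with 9 that fell by at least 1. Fosb was at 90.2 and 92.8 CPM in clone 1, 16.6 and 15.8 in clone 2 and 27.9 and 26.6 in parental cells. Egr3 was at 151 and 142, 38.7 and 39.3, and 14.7 and 15 CPM in that order, and Nr4a1 at 85.4 and 85.7, 17.6 and 20.2, and 51.5 and 53.5. Clone 2 was thus below parental cells in Fosb and Nr4a1 and above them in Egr3, while clone 1 was the highest group in all 3. Egr2 fell 3.66-fold. Feedback genes of the ERK pathway share inducers with these genes. Of 18 such genes, 4 were higher and 9 lower (72.2% called, against 51.2% of all genes), with a median of -0.163. Dusp6, a phosphatase that switches ERK off, fell 1.6-fold from 510 and 500 to 321 and 309 CPM and Spry4 fell 1.52-fold, whereas Dusp5 rose 1.58-fold.

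Markers of glial identity held members that went both ways. The summed level of 20 astrocyte markers was 6203 to 6335 CPM in clone 1, 7936 to 8088 in clone 2 and 18420 to 18550 in parental cells. Of 18 measured members 9 were higher and 5 lower (77.8% called, against 51.2% of all genes), with a median of 0.22. That median was 0.269 without clone 1 library 1 and 0.123 without library 2. Gfap, the intermediate filament gene of astrocytes, rose 6.11-fold, but from 1.52 and 1.65 CPM to 9.49 and 9.91, levels far below the parental 2663 and 2719. Ndrg2, another astrocyte marker, went the other way, from 270 and 272 CPM in clone 1 to 62.7 and 64.2 in clone 2. The glycolytic Aldoc (2.07-fold) and the matrix gene Sparcl1 (1.88-fold) rose. The 22 oligodendrocyte lineage markers summed to 6376 to 6520 CPM in clone 1, 7339 to 7629 in clone 2 and 2417 to 2420 in parental cells. Of 14 measured members 7 were higher and 5 lower (85.7% called). Within this list the lineage factor Sox10 rose 3.94-fold to 2.42 and 2.65 CPM and Ugt8a, which makes a myelin lipid, 12.3-fold to 4.38 and 3.38, while the precursor receptor Pdgfra fell 1.82-fold from 55.5 and 57.8 to 31.6 and 30.8 and Gpr17 1.72-fold.

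Most of the called neuronal genes were lower. Of 14 measured genes of neuronal differentiation, 8 were called lower and 1 higher (64.3% called, against 51.2% of all genes), with a median of -0.435. The 24 neuronal markers summed to 2741 to 2956 CPM in clone 1, 2577 to 2597 in clone 2 and 2102 to 2124 in parental cells. The growth cone gene Gap43, unlike the sum, was highest in parental cells. It was at 5.57 and 5.27 CPM in clone 1, 0.921 and 1.07 in clone 2 and 76.8 and 75.1 in parental cells. The intermediate filament gene Ina fell 3.26-fold from 10.4 and 9.89 CPM, the synaptic vesicle gene Syt1 2.64-fold from 8.54 and 8.87, and the microtubule gene Map2 1.36-fold from 1480 and 1326. Progenitor and radial glia genes, by contrast, had a median of -0.024 over 23 genes, and none of them changed by 1. Of the 23, 3 were higher and 9 lower (52.2% called, against 51.2% of all genes). Vim, the filament of radial glia, rose 1.46-fold, and the glial factors Nfia and Nfib fell 1.38-fold and 1.42-fold. Marker lists of other lineages were low, with 112.4 to 118.1 CPM summed over 12 fibroblast markers and 3.683 to 6.44 over 12 endothelial and mural markers in the clones.

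Regional factors went in both directions. Of 13 forebrain factors, 1 was higher and 6 lower (53.8% called, against 51.2% of all genes). Of 12 midbrain, hindbrain and spinal factors, 5 were higher and 3 lower (66.7% called). Six3, a factor of the anterior forebrain, was at 0.336 and 0.262 CPM in clone 1, 2.43 and 2.14 in clone 2 and 0.857 and 0.899 in parental cells, whereas Otx1 fell 1.8-fold. Of 8 measured Hox genes, which set position along the hindbrain and spinal cord, 3 were higher and 0 lower (37.5% called). Hoxa13 was at 0.168 and 0.335 CPM in clone 1 and 2.42 and 2.12 in clone 2, Hoxa6 at 0.778 and 0.816 and at 1.74 and 1.96, and Hoxa7 rose 1.41-fold. All are low levels. Dbx2, a factor of the spinal cord, was at 41.3 and 38.6 CPM in parental cells, 0.9 and 0.714 in clone 1 and 2.1 and 2.5 in clone 2. Egr2, a hindbrain factor that is also an immediate early gene, had the largest fall among the midbrain, hindbrain and spinal factors, 3.66-fold.

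In the Hedgehog list of 14 genes, 4 were higher and 4 lower (57.1% called, against 51.2% of all genes), with a median of 0.015. Evc and Evc2 rose, the co-receptor gene Cdon fell from 13.2 and 12.9 CPM to 2.07 and 1.87, and Ptch1, both receptor and target of the pathway, was at 346 and 344 CPM in clone 1, 219 and 217 in clone 2 and 168 and 165 in parental cells. The clone with the lower Evc and Evc2 had the higher Ptch1. Of 26 Wnt genes, 17 were lower and 4 higher (80.8% called), with a median of -0.33. The secreted Wnt inhibitor Wif1 fell 3.34-fold from 45 and 41.8 CPM to 12.4 and 13.7, the receptor genes Fzd7 and Fzd3 fell 1.52-fold and 1.39-fold, and the target gene Axin2 rose 1.36-fold. Of 23 BMP genes, 12 were lower and 4 higher (69.6% called), with a median of -0.166. Id1, a direct target, rose 3.02-fold from 14.8 and 16.5 CPM to 44.4 and 50.1, against 36.5 and 33 in parental cells. Tgfb1, the ligand TGF-beta 1, was at 0.808 and 0.379 CPM in clone 1, 8.21 and 7.2 in clone 2 and 14 and 14.1 in parental cells. In the Notch list, 8 of 26 were higher and 11 lower (73.1% called). There the ubiquitin ligase gene Dtx1 fell 2.85-fold, Notch2 fell 1.5-fold and Notch3 rose 1.29-fold.

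Surface, matrix and channel genes held several of the largest changes. Potassium channel genes had 17 of 34 lower and 7 higher (70.6% called, against 51.2% of all genes), with a median of -0.338. Next to Dpp6, Kcna6 fell 3.37-fold from 19.7 and 17.4 CPM and Kcnk3, a leak channel, 5.24-fold from 3.95 and 3.67, while Kcnc1, a fast delayed rectifier, was at 59.4 and 59.2 CPM in clone 1, 280 and 282 in clone 2 and 67.4 and 67.8 in parental cells. Kcnc1 was thus high in clone 2 alone. Among 33 collagens, laminins and integrins 17 were lower and 6 higher (69.7% called). The basement membrane collagen gene Col4a1 fell 3.68-fold from 23.8 and 22.8 CPM to 6.31 and 6.34. Of 34 synaptic adhesion genes 15 were lower and 13 higher (82.4% called), with Slitrk5 2.6-fold lower and Slitrk3 5.44-fold higher. The guidance ligand gene Slit2 fell from 6.53 and 5.19 CPM to 0.664 and 0.714, and Sema3a fell 2.53-fold. Among cadherins, Cdh6 fell 6.84-fold and Pcdh7 rose 3.53-fold, from 32.8 and 31.5 CPM to 114 and 113.

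The clustered protocadherins, most of whose isoforms are chosen at random from separate promoters in each neuron and give neurons their own surface codes, went in both directions. Of 42 measured isoforms, 11 were called higher and 20 lower (73.8% called, against 51.2% of all genes). Of these, 5 rose and 6 fell by at least 1. Neighbouring isoforms moved together at 2 places. Pcdhb2, Pcdhb3 and Pcdhb4 rose by 1.08, 1.11 and 1.06 on the log2 scale, and Pcdhga3, Pcdhgb1 and Pcdhga4 fell by 1.84, 1.68 and 1.1. Pcdhb6 was at 2.23 and 2.23 CPM in clone 1, 7.41 and 8.45 in clone 2 and 5.88 and 5.28 in parental cells. Pcdhga1 was at 29.9 and 26.3, 7.05 and 6.75, and 17.2 and 18 CPM in the same order, so that these isoforms were ranked in opposite ways in the clones. The summed level of all 42 was 1133 to 1230 CPM in clone 1 and 1112 to 1130 in clone 2. Gamma isoforms share their last exons, so that reads there cannot be assigned to one of them, and the counting of such reads is not described.

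**Figure D4:**
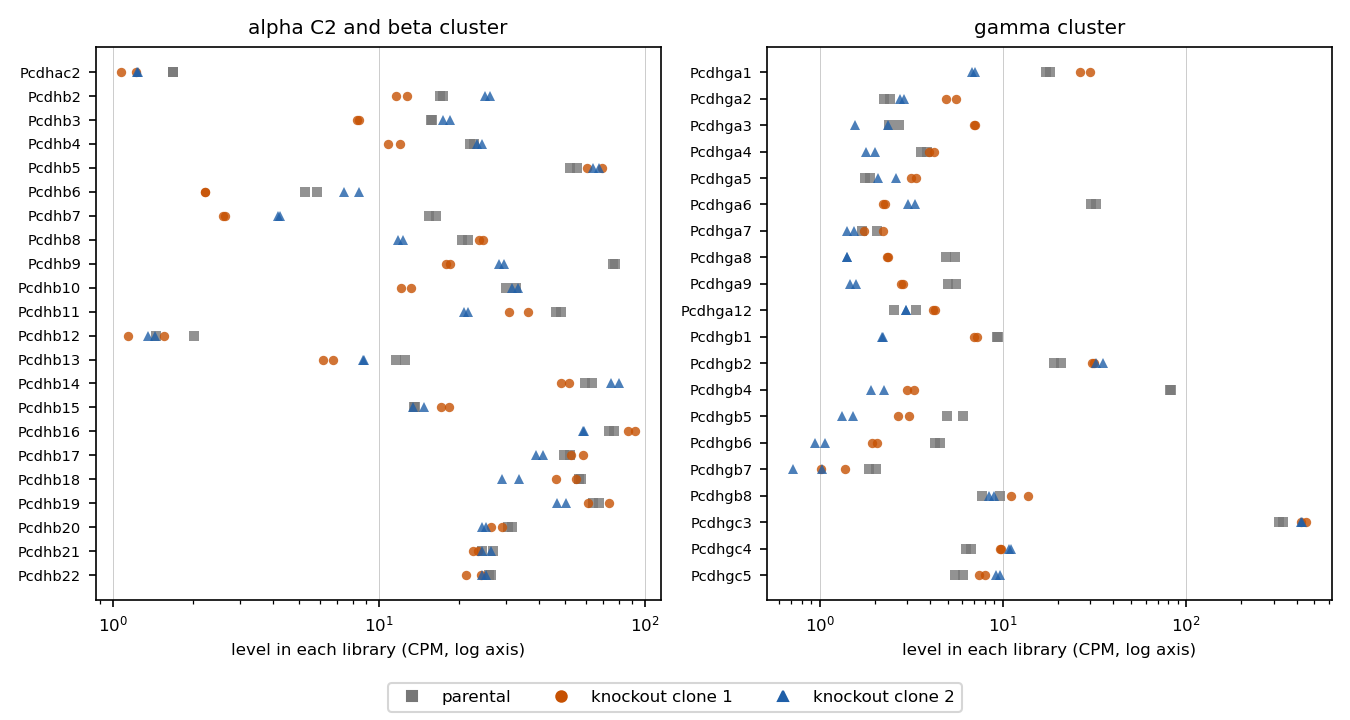
Level in CPM (log axis) of 42 clustered protocadherin isoforms in each of the 6 libraries, ordered by name within the beta cluster with the alpha C2 isoform (left) and the gamma cluster (right). Pcdhb2 to Pcdhb4 and Pcdhb6 lie higher in clone 2, and Pcdhga1 and Pcdhgb1 lower, while Pcdhb5 and Pcdhgc3 lie at like levels in both clones.

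Imprinted genes, expressed from the copy of a single parent, also changed one by one. Of 31 measured, 16 were called lower and 9 higher (80.6% called, against 51.2% of all genes). Their median was -0.229, and 5 fell and 2 rose by at least 1. Ndn and Nnat had the largest differences, the former silent in clone 1 and the latter low in clone 2. Blcap, the gene in whose intron Nnat lies, was at 43.2 and 43.4 CPM in clone 1 and 49.8 and 52 in clone 2, so that the host gene was higher in the clone where Nnat was low. Peg10, a gene derived from a retrotransposon, was at 1129 and 1008 CPM in clone 1, 566 and 535 in clone 2 and 193 and 199 in parental cells, and Peg3 fell 1.74-fold from 151 and 144 to 84.8 and 85.3. Plagl1, a zinc finger factor singled out after its values were seen, was at 5.9 and 4.87 CPM in clone 1, 1.95 and 1.74 in clone 2 and 82 and 90.1 in parental cells. Allele-specific expression was not analysed here.

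Stress, immune and metabolic lists completed the survey. Of 30 antioxidant genes under NRF2, 16 were higher and 4 lower (66.7% called, against 51.2% of all genes), with a median of 0.254. The cystine transporter gene Slc7a11 rose 1.89-fold and Nfe2l2, which encodes NRF2, 1.51-fold, while the peroxiredoxin gene Prdx1 fell 1.41-fold. Heat shock genes had a median of 0.002, and apart from Bag3 the changes were small, such as Hsph1, which rose 1.4-fold, and Hspa4l, which fell 1.42-fold. Of 8 metallothionein and zinc transport genes, 4 were higher and 2 lower (75% called). The metallothionein Mt3 rose 2.48-fold and the manganese exporter Slc30a10 fell 6.37-fold, from 2.03 and 1.98 CPM. In the interferon and antigen presentation list, 5 of 23 were higher and 6 lower (47.8% called, against 51.2% of all genes). Tap1 and H2-K1, of the class I pathway, rose 2.6-fold and 2.85-fold at low levels. Tap1 was at 1.66 and 1.81 CPM in clone 1 and 4.38 and 4.64 in clone 2. H2-K1 was at 1.66 and 2.05 CPM in clone 1 and 4.5 and 6.15 in clone 2. B2m, the light chain of the class I complex, fell 1.66-fold from 289 and 244 CPM to 159 and 162. Cholesterol synthesis genes had 14 of 25 lower and 2 higher (64% called), with a median of -0.156. Of 16 genes of inherited Parkinson disease, 3 were higher and 7 lower (62.5% called, against 51.2% of all genes), with a median of 0.078. Among them Park7 was 1.4-fold higher and Fbxo7 1.26-fold lower. Outside the lists of p53 targets, integrated stress response, glycolysis, immediate early and G2/M genes, the medians of the lists lay between -0.442 and 0.397.

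Position in the genome, which had no part in choosing the genes, was examined next. The median log2 fold change of the 1085 genes on chromosome 11 was 0.23, and 577 of them (53.2%) were called higher in clone 2 and 135 (12.4%) lower. Between single libraries of the clones the chromosome 11 median ran from 0.215 to 0.257, and it was 0.026 and 0.015 between the libraries of a clone. The medians of the other autosomes and of X lay between -0.111 and 0.029. Chromosome 11 was thus the single one of these chromosomes with a median above 0.03. Against the shared parental libraries, its median was -0.01 in clone 1 and 0.24 in clone 2. For genes on other chromosomes, the median against the same libraries was 0.083 in clone 1 and 0.068 in clone 2. Chromosome 11 thus lay below the other chromosomes in clone 1 and above them in clone 2. With the median of genes of like GC content taken off, the chromosome 11 value was 0.219, and with that of like length it was 0.239.

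The shift did not cover the whole of chromosome 11. In bins of 50 neighbouring genes, 13 of 21 bins of chromosome 11 had a median above 0.2, and 0 of 259 bins on other chromosomes did, where the range was -0.248 to 0.2. The 3 bins nearest the start of chromosome 11 (chr11:3125904-30880361, 150 genes) had a median of -0.017, and the others (chr11:30822309-121716306, 935 genes) 0.261, which is a fold of 1.2. That split was made after the bins were seen. In the latter stretch 540 genes (57.8%) were called higher and 92 (9.84%) lower. Its bins 4, 5, 13, 16 and 18, counted from the chromosome start, had medians from 0.119 to 0.166, within the range of other chromosomes. DNA copy number was not measured. Of the genes described above, Mxra7, Bcl6b, Trp53, Ccng1, Atp5g1, Vdac1, Gfap, Aldoc, Axin2 and Otx1 lie on chromosome 11, and their values were not adjusted for its shift.

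**Figure D5:**
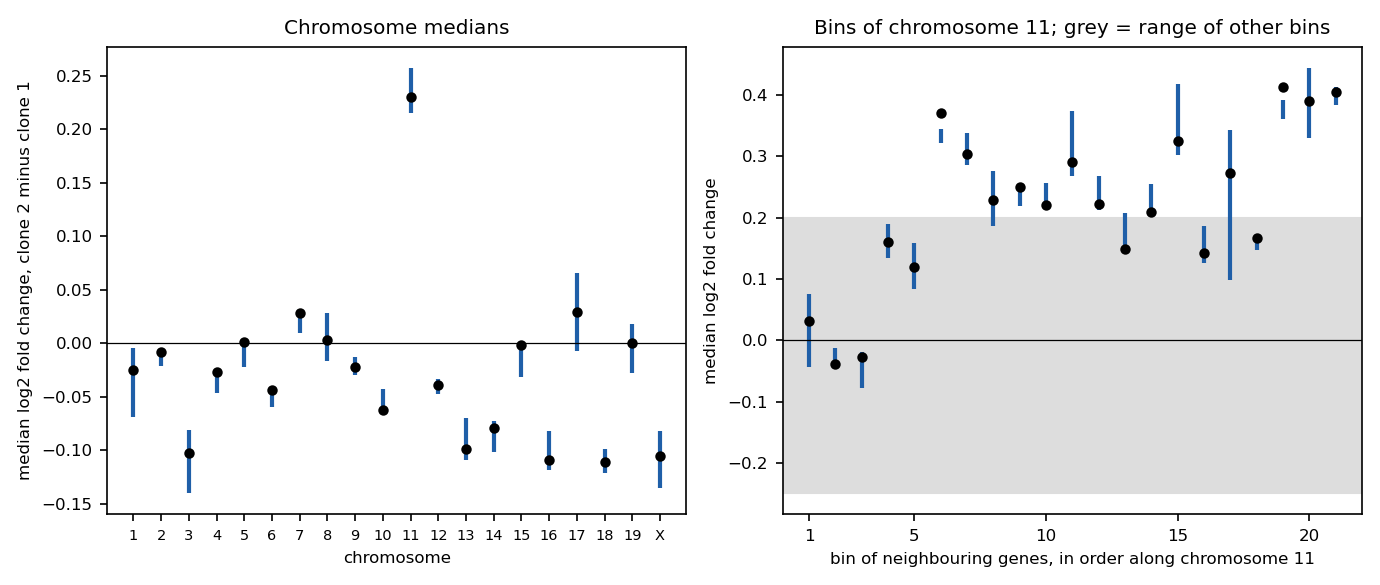
Left, median log2 fold change (clone 2 minus clone 1) of the genes on each autosome and X; right, the same for 21 bins of neighbouring genes along chromosome 11. Black points are medians of the fitted changes, and blue bars span the medians of the 4 pairs of single libraries (log2 CPM, so a point may lie off its bar). The grey band is the range of all bins on other chromosomes, -0.248 to 0.2. Chromosome 11 stands at 0.23, and 13 of its 21 bins lie above the band. Its 3 leading bins and bins 4, 5, 13, 16 and 18 lie within it.

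Large changes rarely ran through neighbouring genes. Neighbours here are successive protein-coding genes among those described, so genes under 1 CPM between them were skipped. There were 0 runs of 4 or more neighbouring genes that all changed by at least 1 in the same direction, 5 runs of 3 and 24 of at least 2. The runs of 3 spanned from 16.4 kb (Pcdhb2 to Pcdhb4) to 1500 kb (Ano3 to Olfr1318). Besides both protocadherin runs, the 5 were Rasal1, Dtx1 and Rph3a on chromosome 5 (lower by 1.02, 1.51 and 1.82), Rai2, Nhs and Reps2 on X (lower by 1.38, 2.08 and 1.17) and Ano3, Muc15 and Olfr1318 on chromosome 2 (higher). Gabra4 and Gabrb1, neighbouring GABA-A receptor genes on chromosome 5, rose by 3.33 and 2.13. Gabrb1 was at 1.62 and 1.41 CPM in clone 1 and 6.58 and 6.72 in clone 2. Muc15 lies within the span of Ano3 on the opposite strand, so that without strand in the counting their reads cannot be told apart where they overlap. It was at 1.14 and 1.25 CPM in clone 1, 3.44 and 3.55 in clone 2 and 8.93 and 9.67 in parental cells.

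A weak trend with transcript composition ran through all genes and was shared with the libraries of a clone. The median log2 fold change rose from -0.174 in the decile of genes with the lowest GC content to 0.147 in the decile with the highest. Between clone 1 library 2 and library 1 the same medians ran from -0.138 to 0.091, and between those of clone 2 from -0.064 to 0.049. By exonic length the median was 0.126 in the decile of shortest genes and -0.144 in that of the longest, against 0.084 and -0.051 within clone 1. Changes of this size, common among the 7490 calls, therefore move with GC content and length, and their part in the calls was not tested. The medians of p53 targets, 1.573 with the GC trend taken off, and of G2/M genes, -0.578, changed little with it. That of the integrated stress response was 0.659, and that of immediate early genes -0.968.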

How the data were processed

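Total RNA of 6 libraries was sequenced. The labels' protocols name a SMART-Seq v4 ultra-low input kit or a TruSeq kit, without saying which library had which. Per the submitters' processing notes, STAR and featureCounts were used with the builds GRCm38.p6 and mm10; the notes give no versions or strand setting. The authors deposited raw counts per gene, as whole numbers. Columns were matched to samples by name, and 41869 of 42365 gene IDs were found in the GENCODE annotation of GRCm38.

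Genes were filtered with filterByExpr (minimum count 10), leaving 23400, and fitted in R 4.3.3 with edgeR 4.0.16 (TMM scaling, robust quasi-likelihood test, 6 libraries in 3 groups, 3 residual degrees of freedom). P-values were adjusted by Benjamini-Hochberg over all 23400 genes. CPM are TMM-scaled. SE is the standard error of a log2 fold change, and folds are its antilog. The 56 gene lists and the genes described were chosen with earlier results of these data known. Named genes are the 15 called genes with the largest rise and fall (mean of at least 5 CPM, named protein-coding or long noncoding genes), up to 4 members of a list by adjusted p, members of lists of at most 16 genes, silent genes and members of runs, apart from those said to be chosen later; Trp53, Mdm2, Bax, Pink1 and Blcap were added for background. Alternatives were DESeq2 1.42.0, limma-voom 3.58.1, other scalings and filters, the 4 knockout libraries alone, a replicate block and each library left out. Some genes that the rule names, the targeted gene among them, are not reported here.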

Additional observations from a re-analysis of the deposited data

How the results depend on the processing

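Of the 7490 called genes, 0 changed sign in the 15 alternative settings (6290 had a value when genes under 5 CPM were left out), and the number called in the same direction again ran from 5091 (without clone 2 library 2) to 7433. Leaving out each library in turn gave 5146 to 8254 called genes, 2371 to 3737 higher and 2775 to 4517 lower in clone 2, 625 to 760 with a change of at least 1 on the log2 scale (301 to 365 higher, 324 to 395 lower), 5 to 6 lists with a median at least 0.5 from 0, and a chromosome 11 median of 0.234 to 0.26. DESeq2 called 6616 genes, limma-voom 7410 and the 4 knockout libraries alone 6781. Upper quartile scaling gave 3680 genes higher and 3710 lower, and a chromosome 11 median of 0.259. When fewer genes were tested, those averaging 5 CPM or more, 319 changed by at least 1 (178 higher and 141 lower), and the chromosome 11 median was 0.27. Raising the level needed in the other clone to 5 CPM left 3 silent genes. Runs of at least 3 genes, an alternative chosen after seeing the data, numbered 5 against 0 of at least 4. Of the 277 named genes, 15 missed the threshold in at least 1 setting where they had passed it; Cdk4, mt-Co2, mt-Atp8 and Tek were among them.

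It was not settled whether the replicate numbers pair the libraries. Across genes, same-numbered libraries of the clones deviated together with a correlation of 0.083, which cannot decide it. From library 1 to library 2, the trend with GC content ran the same way in both clones. Its medians went from -0.138 to 0.091 in clone 1 and from -0.064 to 0.049 in clone 2. With a replicate block the count was 8294 in the 4 knockout libraries (6781 without it) and 7514 in all 6 (7490 without it). Depth limits genes of few counts, where a clone at 0 to 10 counts gives no usable fold.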
